A study of Chlamydomonas reinhardtii with 9 samples.

Results

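The genes described here are nuclear genes of the green alga Chlamydomonas reinhardtii whose transcripts are listed as peaking 2 h after dawn. The study's list of high-confidence rhythmic genes, compiled from earlier diurnal time courses, gives 220 genes a phase of exactly 2 h. Of these, 37 also stand in the study's lists for iron, nitrogen, ribosomes, lipids, cell division or photosynthesis and were set aside. The other 183 were all present in the count tables, and 160 of them had at least 200 UMIs (unique molecular identifiers, each standing for 1 captured transcript) over the 9 libraries. They are called the early-morning genes below. The members were thus chosen by a phase measured in other cultures and selected on their total UMIs in these libraries, not on any difference between them. For comparison, 13119 of all 17893 genes reached that minimum. The 23 genes under it included Cre07.g331401 with 199 UMIs, the nearest below, whereas Cre16.g649700 with 226 UMIs was the nearest above.

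The libraries came from batch cultures in acetate medium under constant light, collected 23 h after transfer to the test medium. In the first experiment (Exp. 1), CC-5390, a strain without a cell wall (cw15, with arg7-8 complemented by ARG7, mating type plus), gave 1 library with 20 µM iron (Fe+), 1 without iron (Fe−) and 1 of both cultures combined (Mix). In the second (Exp. 2), CC-5390 gave 1 Fe+ library, 1 Fe− library and a pair of libraries without nitrogen but with iron (N− R1 and N− R2), and CC-4532, a walled strain of mating type minus, gave 1 Fe+ and 1 Fe− library. Strain and wall were not varied separately and cannot be told apart. The experiments also differed in sequencer, in reads per library and in the schedule of their pre-cultures. These differences cannot be told apart where levels of the experiments are set side by side. No library belongs to a time course, so the 2 h label could not be checked in these data.

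In cultures kept on light and dark cycles, most Chlamydomonas transcripts rise and fall once a day, and those of the first hours of light include many parts of the chloroplast's gene expression machinery. The 29 nuclear genes for chloroplast ribosomal proteins and factors that carry the same 2 h phase are not among the 160 and serve here as a contrast. None of the sources used here gives the 160 genes a symbol or a product name, so they are given by locus ID and position in the v5.5 genome, and no function is assigned to any of them.

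Sequencing gave 7576775 to 52436795 UMIs and 2064 to 11798 cells per library. Libraries shared between 0 and 40 cell barcodes pairwise, at most 0.436% of the smaller library. Levels are given as counts per 1000000 UMIs (CPM), which depend on how the rest of the transcriptome is spread. In N− the median of all genes lay 0.95 higher (log2) than in Fe+ of the same experiment, and in CC-4532 with iron it lay 0.87 lower than in CC-5390. Ratios are therefore also given centred, that is, after subtracting the median log2 ratio of all genes in that comparison. FEA1 (Cre12.g546550), an iron-assimilating protein secreted by iron-starved cells, marked the iron state of the libraries, with 340 and 132 CPM in Fe+ and 2202 and 618 CPM in Fe− of CC-5390, and 16.6 and 582 CPM in Fe+ and Fe− of CC-4532.

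The early-morning genes were mostly of low abundance. Their mean over the 9 libraries ran from 0.809 to 1687 CPM with a median of 7.98 CPM, and 10 genes held 67.0% of all their UMIs. Counts are of transcript 3′ ends and were not divided by gene length. As a sum, the 160 genes took 0.996% of the UMIs in CC-5390 Fe+ of Exp. 1, 0.803% in the Mix, 0.578% in Fe− of Exp. 1, 0.609% in Fe+ and 0.404% in Fe− of Exp. 2, 0.537% and 0.590% in N−, and 0.396% and 0.331% in Fe+ and Fe− of CC-4532. The sum was lower in Fe− than in Fe+ in each of the 3 pairs, although the median log2 change of single genes was small (given below) and 10 genes made up most of the sum. Fewer cells expressing a gene and less RNA per cell cannot be told apart in these sums.

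The genes lie on 17 chromosomes, with 17 on chromosome 3, 16 each on chromosomes 6 and 12, and 2 on scaffolds without a chromosome. Neighbouring pairs were rare. Cre16.g649700 and Cre16.g649750 are adjacent, and Cre07.g356800 and Cre07.g356900 are separated by 1 gene.

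Cre02.g097400 (chromosome 2, 4069253 to 4071505) was the most abundant member in every library. It had 3155 CPM in Fe+, 2749 in the Mix and 2224 in Fe− of Exp. 1, 2158 in Fe+ and 1390 in Fe− of Exp. 2, 857 and 865 in N−, and 1145 in Fe+ and 640 in Fe− of CC-4532. It was lower in Fe− than in Fe+ in all 3 pairs, by less than 2-fold each time.

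Cre03.g164000 (chromosome 3, 3024480 to 3027894) came second by mean CPM and had the largest decrease of the members in the blocked fit described below. It had 1707 CPM in Fe+, 984 in the Mix and 144 in Fe− of Exp. 1, 982 in Fe+ and 149 in Fe− of Exp. 2, 103 and 72.6 in N−, and 874 in Fe+ and 341 in Fe− of CC-4532. The Fe− libraries of CC-5390 and the N− libraries all had 149 CPM or less, and every Fe+ library had 874 CPM or more.

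The next genes by abundance followed different courses. Cre09.g389689 (chromosome 9, 3492913 to 3496817) had 746 CPM in Fe+, 568 in the Mix and 329 in Fe− of Exp. 1, 650 and 291 in Fe+ and Fe− of Exp. 2, 184 and 186 in N−, and 364 and 159 in Fe+ and Fe− of CC-4532. Cre10.g434750 held 410 CPM in Fe+, 402 in the Mix and 392 in Fe− of Exp. 1, 432 and 273 in Fe+ and Fe− of Exp. 2, 136 and 159 in N−, and 399 and 248 in CC-4532. Thus both were lowest or nearly lowest in N−, but Cre10.g434750 hardly differed between the iron states of Exp. 1.

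Cre02.g116650 (chromosome 2, 6517046 to 6519406) went the other way. It had 38.1 CPM in Fe+, 56.1 in the Mix and 88.5 in Fe− of Exp. 1, 15.9 and 79.2 in Fe+ and Fe− of Exp. 2, 292 and 267 in N−, and 16.97 and 74.0 in Fe+ and Fe− of CC-4532. Every Fe+ library was below every Fe− library, and N− was the highest. Cre06.g251600, with 129 CPM in Fe+, 128 in the Mix and 130 in Fe− of Exp. 1, 74.2 and 126 in Exp. 2, 235 and 243 in N−, and 21.0 and 45.6 in CC-4532, was also highest in N− by CPM. The TMM factors were 1.514 and 1.855 in N− R1 and R2 but 0.825 in Fe− of Exp. 2. After that scaling N− R2 was below Fe− of Exp. 2. Of the remaining abundant members, Cre07.g340200 ranged from 33.6 CPM in CC-4532 Fe+ to 183 CPM in CC-5390 Fe+ of Exp. 1, and Cre01.g050100 from 67.3 CPM in N− R1 to 144 CPM in Fe− of Exp. 1.

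**Figure D1:**
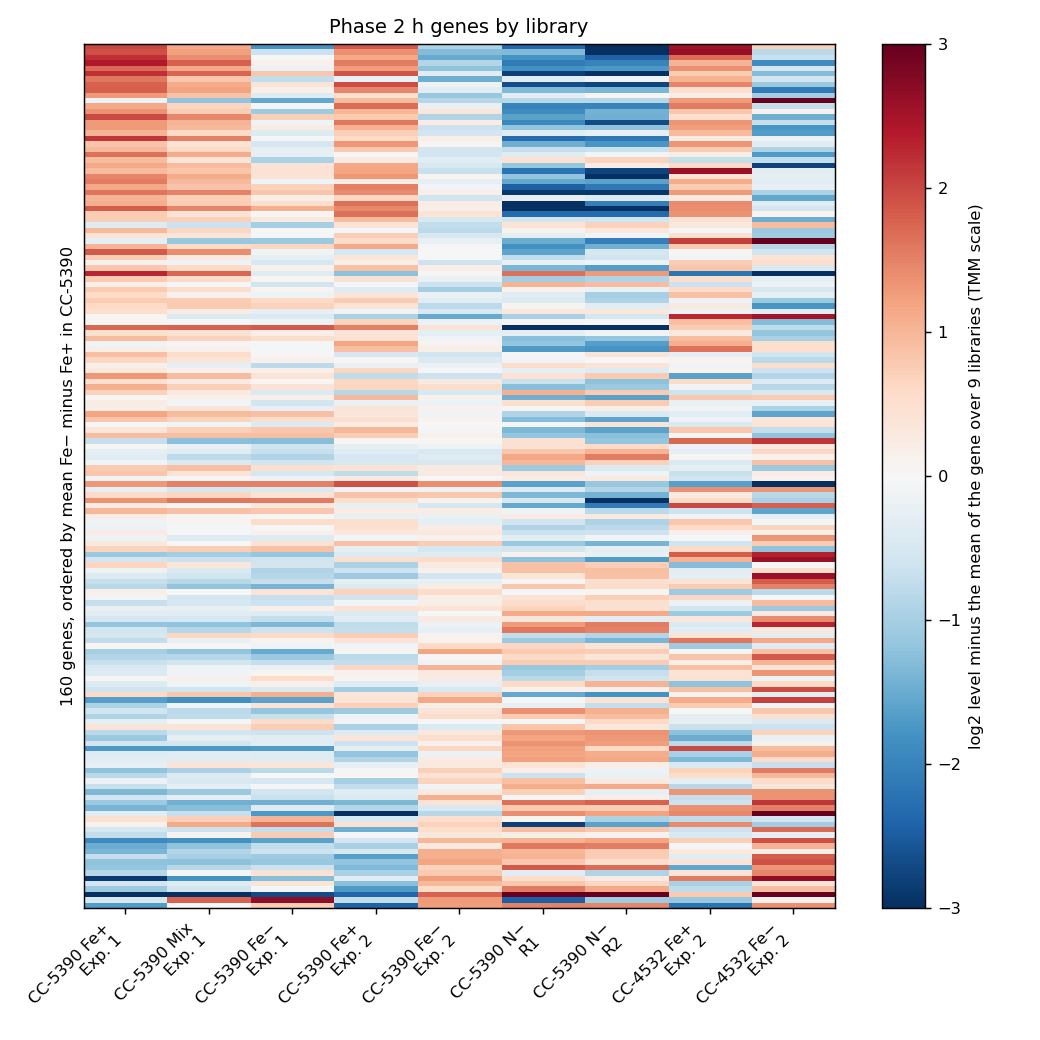
Level of each of the 160 early-morning genes (rows) in each library (columns), as log2 of CPM on the TMM scale with 0.5 added to each count, minus the mean of the gene over the 9 libraries; red is higher and blue lower, and values past 3 take the end colours. The Mix column lies between the Fe+ and Fe− columns of Exp. 1, and the N− columns hold both the bluest cells at the top and red cells lower down, so the genes did not move as 1 block.

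To ask which early-morning genes differed with iron in CC-5390, the library sums of the 2 Fe− and the 2 Fe+ libraries were compared by edgeR's quasi-likelihood test with Benjamini-Hochberg adjustment over all 14588 genes tested. Without regard to the experiment, none of the 160 genes passed an adjusted p of 0.05, against 0 of all genes (0.0%). At an unadjusted p under 0.05 the test held 21 of the 160 genes (13.1%), beside 12.2% of all genes. DESeq2 called 8 of the 148 to which it gave an adjusted p, 3 higher and 5 lower, beside 4.55% of all genes.

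The libraries of an experiment, labelled as 1 run, were grown, treated and collected together, so the experiment pairs them. In Exp. 1 both cultures came from 1 culture divided at the start of the treatment, whereas those of Exp. 2 had grown in separate flasks since their inoculation days before. Blocking on the experiment, the same edgeR test called 14 of the 160 genes (8.75%), beside 8.18% of all genes. Of these, 11 fell (6.88%) and 3 rose, beside 3.87% of all genes lower and 4.32% higher. The share called was thus close to that of all genes. The median log2 change over the 160 genes was −0.18 with the block and −0.19 without it, beside −0.01 and −0.03 over all genes. The chloroplast ribosome genes of the same phase stood apart, since all 29 fell in the blocked fit, with a median log2 change of −2.18, although edgeR passed none without the block. They were also far more abundant, so the shares called are not directly comparable. Their median was 430 and 200 CPM in Fe+ of Exp. 1 and Exp. 2, beside 8.09 and 4.41 CPM for the early-morning genes. DESeq2 without the block called 25 of the 29, all lower.

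Cre03.g164000, with the CPM values given above, fell by 3.28 on the log2 scale (SE 0.40, adjusted p = 2.6e-05 in the blocked edgeR fit). In CPM both Fe− libraries lay at about the same level and both Fe+ libraries far above them. The TMM factors of the Fe− libraries differed in the unblocked fit (1.43 in Exp. 1, 0.770 in Exp. 2), so the near equality holds for CPM only. Without the block the adjusted p of Cre03.g164000 was 0.253 in edgeR.

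Cre04.g231222 (chromosome 4, 3939164 to 3952875) had 199 CPM in Fe+, 132 in the Mix and 46.8 in Fe− of Exp. 1, and 69.6 in Fe+ and 13.6 in Fe− of Exp. 2. It fell by 2.36 (SE 0.50, adjusted p = 0.00495 in the blocked edgeR fit), and the Fe+ and Fe− libraries did not overlap. In CC-4532 it had 26.9 CPM in Fe+ and 4.93 CPM in Fe−, the lowest ratio of Fe− to Fe+ in that strain among members that held 200 UMIs or more in either library, and in N− it had 10.6 and 14.2 CPM.

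Cre08.g358540 (chromosome 8, 145865 to 148721) had 43.1 CPM in Fe+, 25.3 in the Mix and 10.6 in Fe− of Exp. 1, 13.4 and 2.21 in Fe+ and Fe− of Exp. 2, 10.7 and 2.88 in Fe+ and Fe− of CC-4532, and 3.30 and 2.62 in N−. It fell by 2.45 (SE 0.54, adjusted p = 0.00683 in the blocked edgeR fit). Cre12.g509650 (chromosome 12, 2063636 to 2067715) had 80.8, 56.3 and 25.3 CPM in Fe+, the Mix and Fe− of Exp. 1, 38.4 and 7.27 in Exp. 2, 23.2 and 8.38 in CC-4532, and 8.71 and 11.4 in N−. It fell by 2.18 (SE 0.53, adjusted p = 0.0132 in the blocked edgeR fit). In both genes each Fe− library was below its own Fe+ library, and the N− libraries stood near the Fe− library of the same experiment.

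Cre03.g189200 (chromosome 3, 5833816 to 5835757) was rare, with 115 and 25 UMIs in Fe+ and Fe− of Exp. 1 (3.59 and 0.673 CPM), 58 and 13 UMIs in Exp. 2 (1.54 and 0.248 CPM), and 37 and 8 UMIs in CC-4532 (2.03 and 0.242 CPM). It fell by 2.65 (SE 0.53, adjusted p = 0.00333 in the blocked edgeR fit). Its N− libraries held 3 and 1 UMIs.

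The other 6 genes that fell in the blocked fit were Cre17.g741450 (−1.82), Cre03.g205900 (−1.80), Cre07.g314450 (−1.75), Cre12.g560550 (−1.71), Cre03.g206600 (−1.65) and Cre09.g389689 (−1.31), with log2 changes in parentheses and adjusted p from 0.0233 to 0.0449. Cre03.g205900 (chromosome 3, 7429936 to 7433549) had 256, 156 and 58.2 CPM in Fe+, the Mix and Fe− of Exp. 1 and 48.0 and 21.1 in Fe+ and Fe− of Exp. 2. In CPM, Fe− of Exp. 1 thus exceeded Fe+ of Exp. 2. The TMM factors of the unblocked fit, 1.43 and 0.755 for these libraries, turn that order. Without Fe+ of Exp. 1 the log2 change of Cre03.g205900 in the unblocked fit was −0.91, against −2.02 with all 4 libraries. In N− it had 82.1 and 121 CPM, above both Exp. 2 libraries. Cre03.g206600 likewise had 125, 94.7 and 44.97 CPM in Exp. 1, 46.6 and 15.9 CPM in Fe+ and Fe− of Exp. 2, and 50.8 and 80.4 CPM in N−. On the centred scale the N− over Fe+ ratio was 0.15 for Cre03.g205900 and −0.43 for Cre03.g206600, so these genes were near the median of all genes in N−. Cre17.g741450 (94.4 and 41.0 CPM in Fe+ and Fe− of Exp. 1, 48.8 and 10.9 in Exp. 2) differed from them in N−, where it had 3.56 and 3.92 CPM.

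Only 3 members rose in the blocked fit. Cre08.g384250 (chromosome 8, 4743807 to 4748218) had 1.22, 3.99 and 7.43 CPM in Fe+, the Mix and Fe− of Exp. 1, 0.452 and 6.31 in Fe+ and Fe− of Exp. 2, 0.274 and 4.90 in Fe+ and Fe− of CC-4532, and 13.6 and 16.2 in N−. Each Fe− library was above every Fe+ library. The gene rose by 3.02 (SE 0.52, adjusted p = 9.42e-04 in the blocked edgeR fit).

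Cre07.g346250 (chromosome 7, 4886287 to 4893155) had 2.31, 11.2 and 23.2 CPM in Fe+, the Mix and Fe− of Exp. 1 and 1.22 and 5.23 in Fe+ and Fe− of Exp. 2. It rose by 2.59 (SE 0.52, adjusted p = 0.00345 in the blocked edgeR fit). In CC-4532 it had 0.493 and 1.70 CPM, and in N− 0.660 and 2.29 CPM, where it did not stand above Fe− of the same experiment.

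Cre12.g492650 (chromosome 12, 576393 to 582046) had 1.496, 1.84 and 3.29 CPM in Fe+, the Mix and Fe− of Exp. 1 but 2.26 and 42.5 CPM in Fe+ and Fe− of Exp. 2. It rose by 2.59 (SE 0.74, adjusted p = 0.0321 in the blocked edgeR fit). The size of the increase rested on Fe− of Exp. 2: without that library the log2 change in the unblocked fit was 0.20, and with all 4 libraries 3.77.

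**Figure D2:**
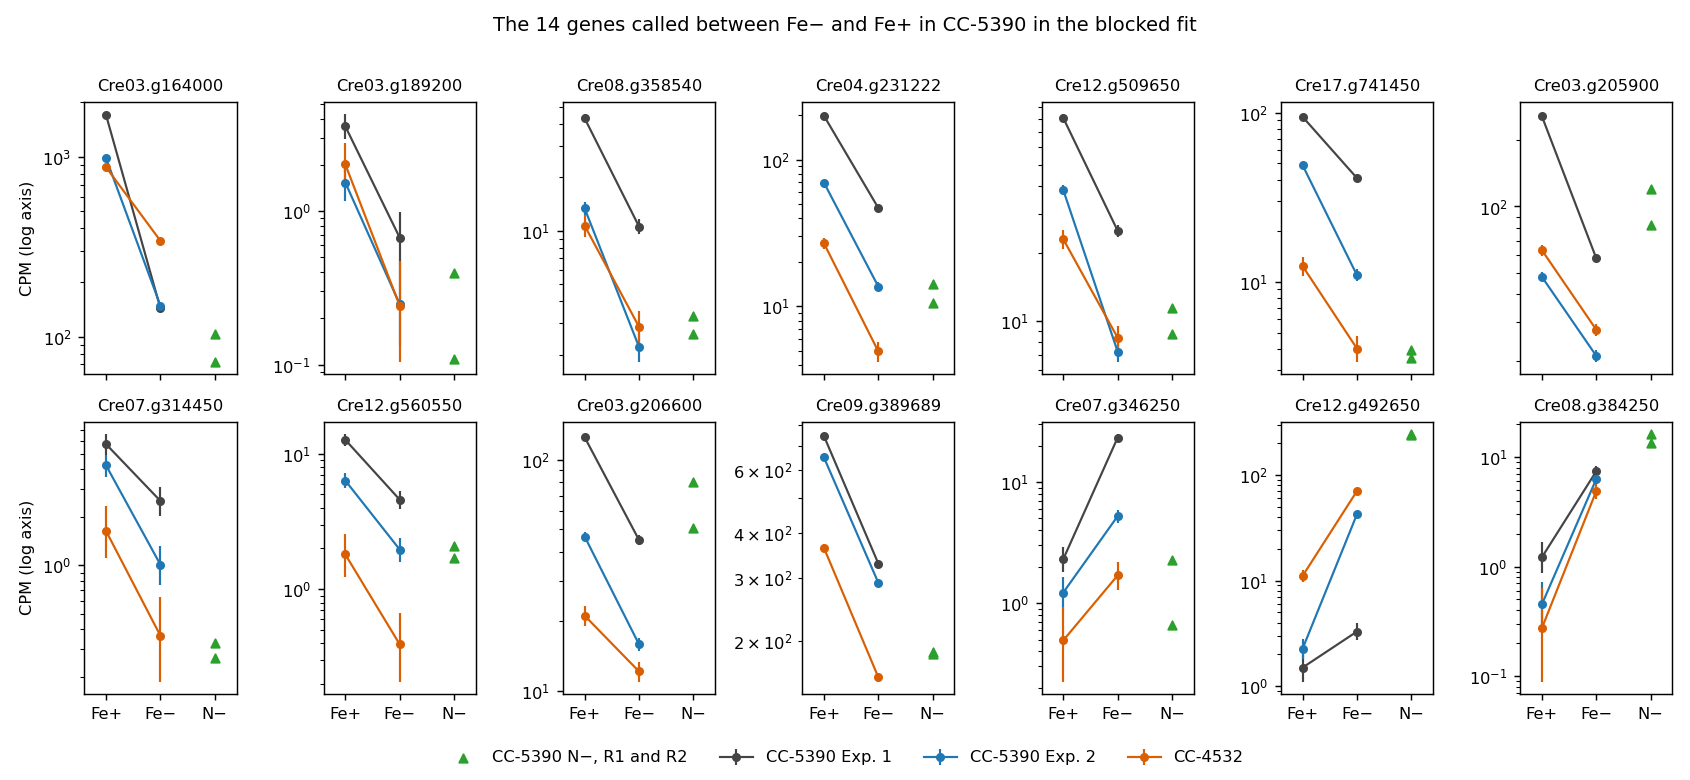
CPM (log axis) of the 14 early-morning genes called between Fe− and Fe+ of CC-5390 in the blocked edgeR fit; lines join Fe+ and Fe− of 1 experiment or strain, bars are exact 95% Poisson intervals, and triangles are the N− libraries. The first 11 panels fall from Fe+ to Fe− in all 3 pairs and the last 3 rise, whereas the N− points lie at or below Fe− for Cre17.g741450 and well above it for Cre03.g205900 and Cre12.g492650.

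The 3 iron pairs share no library, and their ratios can be set side by side gene by gene. Genes were read where they had at least 20 UMIs in the libraries compared, 0.5 was added to each count, and 2-fold was taken as the limit; with 1 library a condition these ratios carry no test. In Exp. 1, 13 of the 160 genes were at least 2-fold higher in Fe− and 27 lower, beside 16.0% and 9.37% of all genes. In Exp. 2, 26 were higher and 34 lower, beside 21.8% and 17.3%. In CC-4532, 57 of 152 were higher and 33 lower, beside 34.0% and 15.4%, and after centring 38 and 42, beside 25.6% and 23.6%.

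The same direction past 2-fold in both CC-5390 experiments was seen for 7 genes higher and 17 lower of 160, beside 8.07% and 5.77% of all genes. In all 3 pairs it was 7 higher and 15 lower of 152, beside 6.53% and 4.41% of all genes. After centring, 5 were higher and 17 lower in all 3 pairs, beside 4.86% and 5.8%. By contrast, the chloroplast ribosome genes of this phase were at least 2-fold lower in 29, 28 and 29 of 29 cases in the 3 pairs.

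Among the higher 7 were Cre02.g116650, Cre08.g384250, Cre12.g492650 and Cre07.g346250, already described, together with Cre04.g219851, Cre10.g444550 and Cre12.g521500. On the centred scale Cre12.g492650 and Cre10.g444550 missed the 2-fold limit in Exp. 1, with log2 ratios of 0.97 each. Beside the genes named above, Cre06.g251150 was lower in all 3 pairs, with 151 and 71.0 CPM in Fe+ and Fe− of Exp. 1, 41.9 and 13.7 in Exp. 2, and 19.2 and 6.69 in CC-4532. The remaining genes lower in all 3 pairs were Cre03.g167400, Cre08.g368900, Cre13.g606050 and Cre17.g729800.

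**Figure D3:**
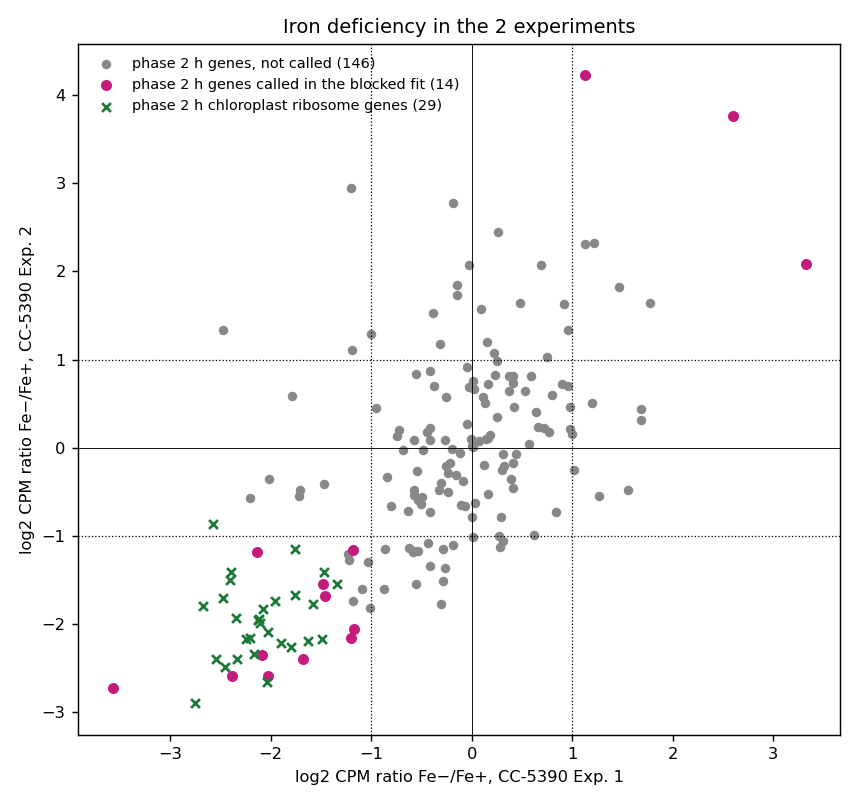
Log2 CPM ratio of Fe− over Fe+ in CC-5390, Exp. 1 on the x axis and Exp. 2 on the y axis, for the 160 early-morning genes (circles, the 14 called ones in magenta) and the 29 chloroplast ribosome genes of the same phase (crosses); dotted lines mark 2-fold. The crosses sit in the lower left, whereas the circles surround 0 with a tail into the same corner, where 17 genes pass 2-fold in both experiments.

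Equal parts of both cultures went into the Mix, which allows a check of the ratios of Exp. 1. For all 40 early-morning genes that differed by 2-fold or more between Fe+ and Fe− of Exp. 1, the Mix had a CPM between them, beside 99.0% of all genes.

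In CC-4532, among members with 200 UMIs or more in either library and no fewer than 4 in the other, the increases without iron were largest for Cre08.g358576 (0.712 CPM in Fe+, 7.38 in Fe−), Cre17.g728950 (1.75 and 17.6 CPM), Cre16.g677550 (2.41 and 22.9 CPM), Cre03.g162900 (2.41 and 21.8 CPM) and Cre15.g635200 (2.68 and 18.6 CPM). Their ratios were 10.4 (95% interval 5.96 to 19.8, counting error only), 10.0 (7.02 to 14.8), 9.52 (7.02 to 13.2), 9.05 (6.67 to 12.6) and 6.92 (5.17 to 9.45). In CC-5390 of Exp. 1 the same genes differed little, with log2 ratios of 0.69 for Cre08.g358576, −0.26 for Cre17.g728950, −0.15 for Cre16.g677550, 0.03 for Cre03.g162900 and −0.03 for Cre15.g635200. In Exp. 2 the log2 ratios were 2.08, 0.58, 1.85, 0.67 and 2.07 in the same order. The difference between the strains was not tested. Under the same limit the lowest ratios in CC-4532 belonged to Cre04.g231222, Cre17.g741450 (12.4 and 4.03 CPM), Cre06.g251150, Cre12.g509650 and Cre12.g533550 (22.4 and 8.50 CPM), all of which were also lower in Fe− in both CC-5390 experiments.

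Nitrogen starvation was read by summing N− R1 and R2, which the study treats as technical duplicates, and dividing by the Fe+ library of Exp. 2. Since the study's methods give CC-5390 as many flasks as libraries in Exp. 2, the pair may also have been separate cultures, and the spread between them may then hold more than technical error. The duplicates differed by a median of 0.31 (log2, without sign) over 138 early-morning genes, beside 0.32 over all genes, and 5 of the 138 differed by 2-fold or more, beside 5.62% of all genes. Against Fe+, 78 of 160 genes were at least 2-fold higher in N− and 35 lower, beside 49.0% and 15.6% of all genes. After centring, 46 were higher and 56 lower, beside 30.3% and 30.5%. The median log2 ratio was 0.86, beside 0.95 for all genes, and fell to −0.10 after centring. The early-morning genes as a list thus stood near the median of all genes, while single genes ran from −4.14 (Cre12.g487700) to 6.74 (Cre12.g492650) on the log2 scale.

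The genes named at both ends of the nitrogen comparisons also come from those with 200 UMIs or more on 1 side and 4 or more on the other. At one end stood Cre12.g492650, with 2.26 CPM in Fe+ and 244 and 241 CPM in N−, a ratio of 107 (95% interval 86.5 to 134.5). Cre14.g617450 (chromosome 14, 1398588 to 1400061) had 1.28 CPM in Fe+, 9.94 in Fe− and 85.1 and 90.8 in N−, a ratio of 69.1 (51.9 to 94.2) to Fe+. Cre08.g384250 reached a ratio of 33.3 (20.4 to 58.0). Cre08.g358576 had 1.54 CPM in Fe+ and 27.1 and 29.3 in N−, and Cre16.g677550 had 2.71 CPM in Fe+ and 41.7 and 55.4 in N−. In all 5 genes the Fe− library of the same experiment lay between Fe+ and N−.

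At the other end, Cre12.g487700 (chromosome 12, 1452619 to 1459380) had 8.93 CPM in Fe+, 4.27 in Fe− and 0.528 and 0.436 in N−, a ratio of 0.0535 to Fe+ (0.0229 to 0.107) that rested on 8 UMIs in N−. Cre17.g741450 had 48.8 CPM in Fe+ against 3.56 and 3.92 CPM in N−, and Cre03.g164000 had a ratio of 0.0879 (0.0834 to 0.0927). Cre02.g073900 had 8.80 CPM in Fe+, 3.85 in Fe− and 0.792 and 0.981 in N−, and Cre13.g578451 18.9, 7.46, and 1.19 and 3.38 CPM in the same order. These genes were lower in Fe− than in Fe+ as well, and lower still in N−.

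The chloroplast ribosome genes were again the more uniform set, with 23 of 29 at least 2-fold lower in N− than in Fe+ and none higher, and 29 of 29 lower after centring.

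N− was also set against Fe− of the same experiment, which asks what separates the 2 starved states. Here 72 of 158 genes were higher and 19 lower, beside 48.8% and 8.27% of all genes, and after centring 29 higher and 42 lower, beside 15.7% and 22.8%. This comparison shares the N− libraries with the previous one. Under the 200-UMI limit the highest ratios were 8.88 for Cre14.g617450 (95% interval 8.03 to 9.83), 7.04 for Cre09.g393950 (1.83 CPM in Fe−, 11.9 and 13.7 in N−), 6.33 for Cre03.g162900 (5.49 CPM in Fe−, 27.7 and 40.5 in N−), 6.32 for Cre10.g449100 (6.06 CPM in Fe−, 35.6 and 40.5 in N−) and 5.70 for Cre12.g492650. The last 2 differed in Fe−: Cre10.g449100 had 8.80 CPM in Fe+, so it was not higher without iron, whereas Cre12.g492650 was.

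Under the same limit the lowest ratios to Fe− were 0.112 for Cre12.g487700, 0.232 for Cre02.g073900, 0.297 for Cre07.g346250, 0.309 for Cre07.g335400 (17.4 CPM in Fe−, 4.75 and 5.88 in N−) and 0.320 for Cre13.g578451. Of these, Cre07.g346250 was the only one with more transcripts in Fe− than in Fe+, with 5.23 against 1.22 CPM.

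**Figure D4:**
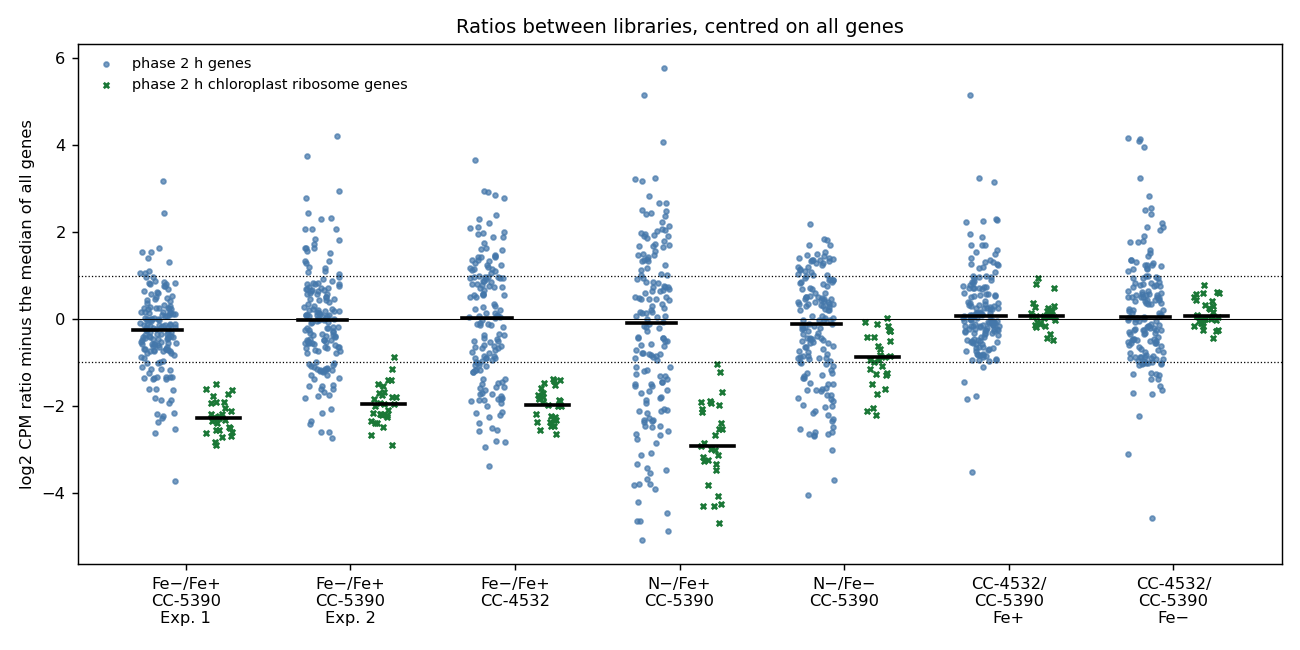
Log2 CPM ratio minus the median of all genes for each early-morning gene (circles) and each chloroplast ribosome gene of the same phase (crosses) in 7 comparisons between libraries; bars are medians, the line at 0 is the median of all genes, and dotted lines mark 2-fold. The circles' medians stay within 0.25 of 0 in each comparison, while the crosses lie near −2 in the 3 iron pairs, near −3 for N− over Fe+, and near 0 between the strains.

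The strains were compared in Exp. 2 in each iron state, with 1 library of each. These comparisons use the same libraries as the iron ratios above. The study reports fewer genes from the walled strain and relates this to how well RNA was extracted or UMIs were formed. Here the median cell held 512 and 367 genes in Fe+ and Fe− of CC-4532, against 454 and 729 in CC-5390 of Exp. 2. Whether capture differed for single genes was not tested. With iron, 9 of 159 early-morning genes were at least 2-fold higher in CC-4532 and 61 lower, beside 3.51% and 43.3% of all genes. After centring, 25 were higher and 5 lower, beside 12.7% and 10.1%. Without iron, 18 of 160 were higher and 52 lower, beside 8.73% and 35.2%, and after centring 32 higher and 20 lower, beside 19.4% and 18.4%. Centring, which subtracts 1 constant from every gene, turned the direction of 51 of the 159 members with iron and of 34 of the 160 without it. In both iron states the same 6 of 159 genes were higher and the same 34 lower, beside 1.87% and 24.5% of all genes, and after centring 15 and 2, beside 7.25% and 5.42%.

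Cre14.g617450 stood out between the strains. It had 25.02 CPM in Fe+ and 120 CPM in Fe− of CC-4532, against 1.28 and 9.94 CPM in CC-5390 of the same experiment, ratios of 19.6 (95% interval 14.5 to 27.0) and 12.03 (10.98 to 13.2). In Exp. 1, however, CC-5390 had 20.6 CPM in Fe+, 16.4 in the Mix and 8.99 in Fe−. The Fe+ value was close to CC-4532 with iron in CPM only. The TMM factors were 1.22 for CC-5390 Fe+ of Exp. 1 and 0.436 for CC-4532 Fe+, and after that scaling CC-4532 stayed higher. Cre16.g664251 had 3.34 and 5.36 CPM in Fe+ and Fe− of CC-4532 against 0.638 and 0.458 CPM in CC-5390, while CC-5390 of Exp. 1 had 2.06 and 1.64 CPM. Cre07.g319650 had 1.97 and 2.996 CPM against 0.744 and 1.07 CPM, and 0.811 and 1.89 CPM in Exp. 1.

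Cre06.g298400 (6.95 and 13.6 CPM in CC-4532, 2.66 and 2.84 in CC-5390 of Exp. 2, 2.56 and 2.83 in Exp. 1, Fe+ and Fe− each time) had about the same CPM in all 4 CC-5390 libraries with or without iron and was higher in both of CC-4532. Cre02.g081950 had 6.73 and 7.99 CPM in CC-4532 and 2.63 and 2.21 CPM in CC-5390 of Exp. 2, but 5.58 and 6.89 CPM in Exp. 1. Under the 200-UMI limit, the highest ratios in Fe+ further included Cre12.g492650 (4.90, from 11.1 and 2.26 CPM), Cre09.g389319 (1.65), Cre13.g582600 (1.36) and Cre03.g205900 (1.32). In Fe− they included Cre17.g728950 (6.39) and Cre03.g162900 (3.97), both of which had their largest increase without iron in CC-4532.

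Among the genes lower in CC-4532 in both iron states, Cre03.g201850 (chromosome 3, 7977630 to 7986785) was nearly missing from the libraries of the walled strain. It had 4 UMIs in Fe+ and 3 in Fe− of CC-4532 against 193 and 196 UMIs in CC-5390 of Exp. 2, ratios of 0.0427 (0.0115 to 0.111) and 0.0243 (0.00497 to 0.0720). In CC-5390 it had 5.24 and 6.95 CPM in Exp. 1 and 5.13 and 3.74 CPM in Exp. 2, Fe+ and Fe− each, and 0.792 and 1.42 CPM in N−. Cre11.g468050, with 1.26 and 0.878 CPM in CC-4532 against 4.49 and 11.4 CPM, and Cre12.g560550, with 1.81 and 0.393 CPM against 6.33 and 1.96 CPM, were lower by a smaller factor. Cre13.g583050 had 0.438 and 0.424 CPM against 1.65 and 1.70 CPM, and Cre43.g760497, on a scaffold without a chromosome, 0.274 and 0.484 CPM against 1.86 and 1.77 CPM. On the centred scale only Cre03.g201850 and Cre43.g760497 remained at least 2-fold lower with iron and without.

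Under the same 200-UMI limit, the lowest ratios with iron further included Cre17.g741450 (0.253 with and 0.368 without iron), Cre06.g251600 (0.283 and 0.363), Cre06.g249750 (0.284 and 0.533) and Cre07.g318551 (0.310 and 0.784). The lowest without iron further included Cre06.g307551 (0.229 without and 0.372 with iron), Cre14.g614300 (0.278 and 0.332), Cre12.g487700 (0.319 and 0.325) and Cre07.g346250 (0.324 and 0.403). All of these but Cre06.g249750 and Cre07.g318551 were thus at least 2-fold lower in CC-4532 in both iron states on the CPM scale.

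Genes that share a phase label may also share cells. To see whether they do here, each cell with at least 1000 UMIs was thinned to 1000. Cells below that were left out, from 124 of 11798 in Fe+ of Exp. 1 to 1158 of 3337 in N− R1. The cells kept were ranked within their library by the summed UMIs of the 29 chloroplast ribosome genes, which are not members. The early-morning genes were then summed over the top 25% and the bottom 25% of cells, leaving the ranking genes out of the totals. Their share was larger in the top 25% in all 9 libraries, by 1.05-fold to 1.84-fold. The share was 1.04% against 0.985% in Fe+ of Exp. 1, 1.02% against 0.630% in the Mix, 0.736% against 0.555% in Fe− of Exp. 1, 0.690% against 0.582% in Fe+ and 0.433% against 0.398% in Fe− of Exp. 2, 0.578% against 0.419% in N− R1, 0.654% against 0.355% in N− R2, 0.538% against 0.299% in Fe+ and 0.369% against 0.280% in Fe− of CC-4532. The Mix holds cells of both iron states, and the N− libraries count as 1 sample.

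The median log2 ratio over the early-morning genes with at least 20 UMIs was above that of all genes in 9 of 9 libraries. The gap was widest in CC-4532 Fe+, with 1.25 over 35 genes against 0.41 for all genes, and narrowest in N− R1, with 0.51 over 57 genes against 0.48. In Fe− of Exp. 2 both medians were below 0, at −0.03 and −0.14. The median of all genes shifted as well, by up to 0.75 in N− R2, and its part in the result was not tested.

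Only 22 of the 160 genes had enough UMIs for a ratio in all 9 libraries. Of these, 10 were higher in the top 25% in every library, beside 15.1% of all genes under the same minimum. Cre03.g206600 had the highest median log2 ratio, 1.09 (0.33 to 2.76 over the libraries), followed by Cre17.g729800 (0.92), Cre03.g205900 (0.88), Cre10.g434750 (0.87) and Cre12.g507150 (0.74). The lowest were Cre02.g143550 (0.26), Cre06.g251600 (0.14), Cre03.g164000 (0.08), Cre09.g389319 (0.08) and Cre02.g116650 (−0.33). Cre03.g164000, although its decrease in the blocked iron fit was the largest, was thus not found in particular in cells rich in chloroplast ribosome transcripts, with ratios from −0.27 to 0.80 in 8 libraries. The exception was the Mix, with 1.89, where cells with and without iron were ranked together.

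Ranked by the 100 genes of the study's cell division list, cells differed in the members' summed share without a common direction. The share was larger in the top 25% in 5 of 9 libraries, with ratios from 0.925 to 1.36 over all 9. The median ratio of the early-morning genes was below that of all genes in every library. In CC-4532 Fe+ and CC-5390 Fe+ of Exp. 2, however, only 13.1% and 19.6% of cells held any UMI of the list. The top 25% there thus included cells without one, placed at random, and the gaps were small (0.0009 against 0.02 and 0.009 against 0.05). Of 25 genes measured in all 9 libraries, 0 were higher in the top 25% in each of them, beside 9.42% of all genes. Cre02.g116650 had the highest median log2 ratio, 0.45, followed by Cre04.g218750 (0.36), Cre02.g143550 (0.31), Cre13.g583550 (0.28) and Cre16.g649750 (0.26), and the lowest were Cre01.g050100 (−0.07), Cre03.g205900 (−0.08), Cre09.g389689 (−0.09), Cre01.g004300 (−0.11) and Cre10.g434750 (−0.18). By these medians, Cre03.g205900 and Cre10.g434750 were among the highest in 1 ranking and among the lowest in the other, and Cre02.g116650 the reverse. Not every library followed the medians. In the ribosome ranking Cre02.g116650 ran from −1.37 to 1.67 and was higher in the top 25% in 4 libraries. In the division ranking Cre03.g205900 ran from −0.48 to 0.22, also higher in 4 libraries, whereas Cre10.g434750 was higher in 1.

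**Figure D5:**
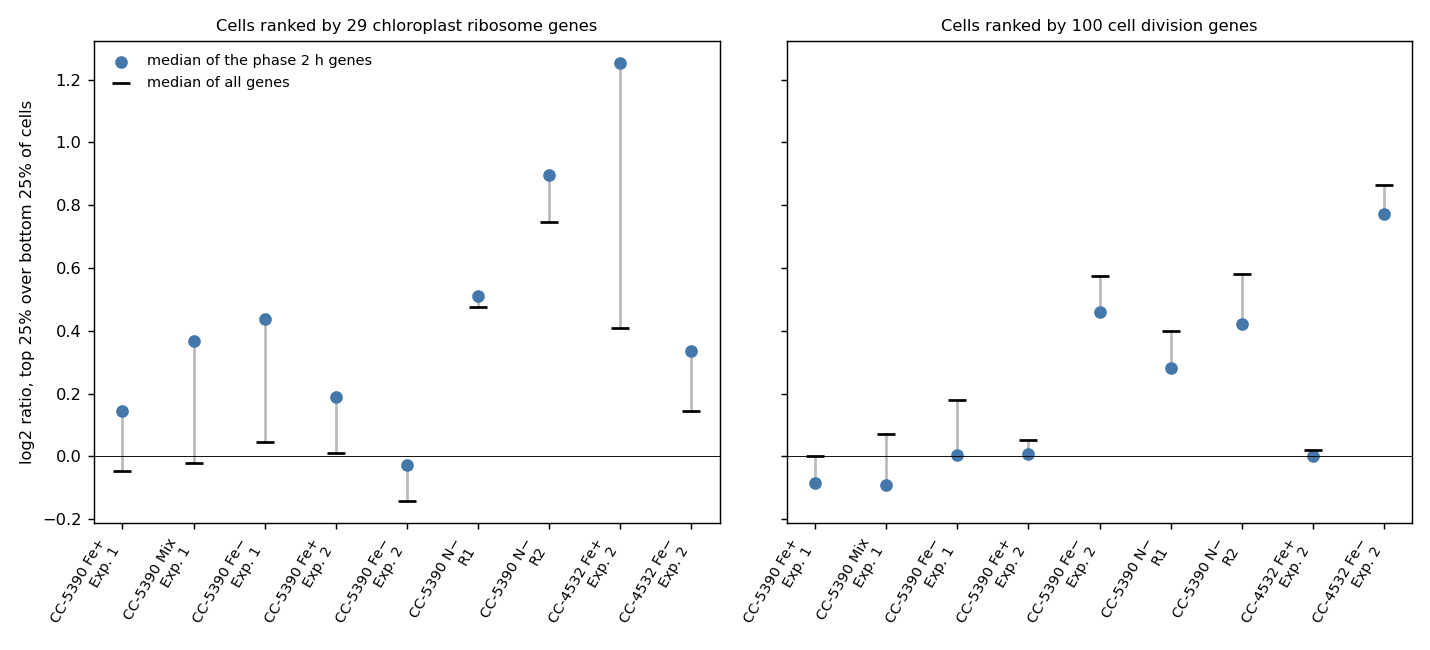
Median log2 ratio of the early-morning genes (circles) and of all genes (bars) between the top 25% and the bottom 25% of cells in each library. Cells with at least 1000 UMIs were thinned to 1000 and ranked by chloroplast ribosome genes (left) or cell division genes (right). Circles lie above the bars in all 9 libraries on the left and below them in all 9 on the right.

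Lists of neighbouring phases, built by the same rule, were read in the same way and are given for the 3 iron pairs. In Fe− over Fe+ of Exp. 1, 16.9% of the early-morning genes were at least 2-fold lower, against 5.52% of 181 genes of phase 0 h, 9.31% of 204 of phase 1.5 h and 15.9% of 201 of phase 2.5 h. In Exp. 2 the shares were 21.3%, 17.03%, 21.1% and 21.0%, and in CC-4532 21.7%, 6.36%, 17.4% and 23.2%. All genes had 9.37%, 17.3% and 15.4%. By this share in CPM the early-morning genes sat close to those of 2.5 h in all 3 pairs, and in Exp. 2 also to those of 1.5 h. After centring, the shares of the early-morning genes were 18.8%, 21.9% and 27.6% in the 3 pairs. Those of 1.5 h were 10.8%, 21.1% and 22.4%, and those of 2.5 h 22.4%, 23% and 33.3%. All genes had 12.2%, 17.5% and 23.6%. On that scale the early-morning genes lay between those of 1.5 h and 2.5 h in all 3 pairs. The genes of 0 h had the smallest share each time. In CC-4532, however, the median log2 ratio of the early-morning genes (0.40) was nearer to that of 1.5 h (0.60) than of 2.5 h (0.07). The 37 phase 2 h genes that the rule set aside differed from all of these lists, with 86.5%, 81.1% and 86.1% lower, 29 of them being the chloroplast ribosome genes.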

How the data were processed

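The authors aligned reads of Chromium single-cell 3′ libraries to the v5.5 genome with Cell Ranger and deposited UMI counts per gene and cell, without normalization. All deposited cells entered the library sums, and doublets were not removed. The cell rankings left out cells with fewer UMIs than the number they were thinned to. The phases and gene lists are the study's, and the members and lists were chosen with earlier results of these data known.

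UMIs were summed per gene and library. CPM are counts divided by the library's total UMIs. Intervals are exact 95% Poisson intervals, or exact binomial ones for a ratio of 2 counts, and cover counting error only. Libraries, not cells, were the replicates: edgeR 4.0.16 (R 4.3.3; filterByExpr, TMM, quasi-likelihood F test) compared 2 Fe− with 2 Fe+ libraries of CC-5390, without and with the experiment as a block, and DESeq2 1.42.0 was an alternative. Its p-values measure the spread between these libraries, which may be technical. The pairing comes from the run named in the labels, and libraries of 1 experiment deviated together from their groups (r = 0.50 across genes). Blocking lowered the biological coefficient of variation from 0.491 to 0.349. The edgeR script was tested on simulated counts. All other comparisons have 1 library a side and carry no test. Other steps used Python 3.11.15.

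Genes named are the 10 most abundant, the 5 largest changes each way among those called by the blocked edgeR fit (since the other called fewer than 5) with 1 direction in both experiments, and the 5 highest and 5 lowest of each other comparison and cell ranking, for library ratios among genes holding 200 UMIs or more in 1 library and no fewer than 4 in the other. The other called genes, those past 2-fold in all 3 iron pairs and those of opposite direction were named after their values were seen. The planned grouping by gene product and the promoter search were not run, because no product names or sequences were at hand. Alternatives were other scalings, minimums, folds, single N− libraries, left-out libraries and the study's cell filter of 100 genes and 300 UMIs. Adding the block to the fit without a low-count filter was chosen after seeing the data.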

Additional observations from a re-analysis of the deposited data

Results flagged for a closer look

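Members were picked out that were past 2-fold in opposite directions between the experiments with CC-5390, or in 1 direction in both of these and the other way in CC-4532, on the CPM and on the centred scale; the differences themselves were not tested, and each ratio compares 1 library with 1 library. Between the experiments with CC-5390, 4 of 160 genes had opposite log2 ratios of Fe− over Fe+, beside 0.89% of all genes on the CPM scale and 1.01% on the centred scale. Cre11.g468050 had −2.47 in Exp. 1 (80.3 CPM in Fe+, 55.1 in the Mix, 14.5 in Fe−) and 1.34 in Exp. 2 (4.49 and 11.4 CPM). Its N− libraries of Exp. 2 had 64.3 and 60.5 CPM, and its CC-4532 libraries 1.26 and 0.878 CPM, so that Fe+ of Exp. 1, the Mix and N− stood far above the rest. Cre14.g617450 had −1.20 in Exp. 1 (20.6 and 8.99 CPM) and 2.95 in Exp. 2 (1.28 and 9.94 CPM), with similar CPM in Fe− and different CPM in Fe+ of the 2 experiments. Cre13.g583550, among the most abundant members, had −1.19 in Exp. 1 (317 CPM in Fe+, 238 in the Mix, 139 in Fe−) and 1.11 in Exp. 2 (66.7 and 144 CPM), again with nearly equal CPM in Fe−. Cre14.g629500 had −1.01 in Exp. 1 (45.9 and 22.8 CPM) and 1.29 in Exp. 2 (9.78 and 23.9 CPM). The near equality of Fe− between the experiments in these genes holds for CPM only, since the TMM factors of the Fe− libraries were 1.43 and 0.770. By CPM, in Cre14.g617450, Cre13.g583550 and Cre14.g629500, Fe+ of Exp. 1 was the highest and Fe+ of Exp. 2 the lowest of the 4 CC-5390 libraries with nitrogen, and N− was above Fe− of Exp. 2.

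Between the strains, Cre07.g339850, a rare member, had log2 ratios of −1.18 and −1.74 in CC-5390 (24 and 12 UMIs in Fe+ and Fe− of Exp. 1, 39 and 16 in Exp. 2) and 2.35 in CC-4532 (13 and 124 UMIs). Over all 3 pairs on the CPM scale, 7 of 152 genes had opposite directions past 2-fold in some pair, beside 2.41% of all genes; the others were Cre12.g558550 (1.69 in Exp. 1, 0.31 in Exp. 2, −2.02 in CC-4532) and Cre17.g721400 (−0.43, −1.08 and 1.05).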

How the results depend on the processing

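In the iron comparison of CC-5390, 0 members were called in edgeR, 14 with the replicate block that pairs the libraries of an experiment, 8 with DESeq2, 17 with DESeq2 and the block, 1 without the low-count filter, 14 with the block and no filter (chosen after seeing the data), and 0 to 3 when single libraries were left out (2 without Fe− of Exp. 1, 3 without Fe+ of Exp. 2, 0 without either of the others, beside 1.23%, 2.41%, 0.509% and 0.0735% of all genes with Fe− of Exp. 1, Fe+ of Exp. 2, Fe+ of Exp. 1 and Fe− of Exp. 2 left out). Where a left-out library leaves 1 sample in a group, that sample is assumed to vary like the others. The number of all genes called moved from 0 to 1194 with the block, 556 with DESeq2, 1189 with DESeq2 and the block, and 48 without the filter. The median log2 change ran from −0.32 to −0.13 over the left-out libraries.

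TMM scaling moved the median log2 ratio to −0.29 in Fe− over Fe+ of Exp. 1, −0.0385 in CC-4532 (36 higher), −0.26 in N− over Fe+ (42 higher, 60 lower), −0.20 in N− over Fe− (26 and 44), 0.0402 in CC-4532 over CC-5390 with iron (25 and 5) and −0.045 without it (32 and 25). Beside these counts, all genes on the TMM scale had 24.5% higher in CC-4532, and 27.6% higher and 33.2% lower in N− over Fe+. In N− over Fe− they had 13.7% and 24.7%. Between the strains they had 12.2% and 10.4% with iron, and 17.4% and 20.7% without it. Centring gave −0.10 for N− over Fe+ (46 and 56), −0.12 for N− over Fe− (29 and 42), 0.0604 between the strains with iron (25 and 5) and 0.046 without (32 and 20). The shares of all genes after centring are given with these counts above. Centring removes the shift of all genes by construction, and TMM scaling left a smaller one in these comparisons. On the TMM scale the median of all genes was −0.16 in N− over Fe+, −0.08 in N− over Fe− and −0.09 between the strains without iron. A direction of the list that turned with either scaling thus cannot be set apart from the shift of all genes. A minimum of 200 UMIs gave 8 higher in Exp. 1, a median of 0.94 with 15 lower in CC-4532, 1.43 with 22 lower for N− over Fe+, 1.26 with 11 lower for N− over Fe−, and 32 and 27 lower between the strains with and without iron; fewer members pass it. A 1.5-fold limit gave 30 and 46 higher in Exp. 1 and Exp. 2, 29 lower for N− over Fe−, 15 higher and 99 lower between the strains with iron and 30 higher without. For the 200-UMI minimum and the 1.5-fold limit no share of all genes was computed. Those counts thus show only how the number of members depends on the limit. N− R1 or R2 alone gave medians of 0.63 to 1.06 over Fe+ and 0.80 to 0.85 over Fe−.

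With cells thinned to 500 UMIs, and with the top and bottom 10% in place of 25%, the early-morning genes were above all genes in 9 of 9 libraries when ranked by chloroplast ribosome genes, and in 1 of 9 when ranked by cell division genes. At 500 UMIs the first ranking left almost no gap in CC-5390 Fe− of Exp. 2 (−0.015 against −0.017) and little in N− R1 (0.263 against 0.254). Depth limits the rare members most: N− holds 16754516 UMIs in all, so 3 UMIs there stand for 0.179 CPM.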
